A study of Mus musculus with 6 samples.

Results

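The genes described here are 55 mouse genes of fatty acid use and the citrate cycle. They run from fatty acid uptake through the carnitine shuttle and beta-oxidation to pyruvate dehydrogenase and the citrate cycle. Their members in the data are the H3K27ac peaks whose annotated gene name equals 1 of the 55 symbols. This gave 153 of 46988 peaks in control quadriceps and 133 of 40721 peaks in detrained quadriceps.

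ChIP-seq of H3K27ac was performed on quadriceps of wild-type male C57BL/6 mice, with 1 quadriceps of 1 animal per library. Mice of both groups were assigned to cages at 8 weeks of age. Control mice lived without a wheel. Detrained mice had free access to a running wheel for 4 weeks, and the wheel was taken away 72 hours before harvest. Each group comprised 2 H3K27ac libraries, C2 and C3 in control and Ex1 and Ex2 in detrained mice, and 1 input library, whose strain the labels give as C57BL/7 in control and C57BL/8 in detrained mice. Whole quadriceps holds muscle fibres together with vessel, connective tissue and immune cells, so a smaller number of cells of a type and less acetylation per cell cannot be told apart. The lists had 20805019 to 22400894 tags per H3K27ac library, of which 44.7% to 49.4% lay in listed peaks. Input depth differed, with 10812470 tags in control and 21298438 in detrained mice, and each group's peaks were called against its own input.

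Acetylation of lysine 27 on histone H3 marks active promoters and enhancers. In muscle, fatty acids enter through CD36 and fatty acid transport proteins, are joined to coenzyme A by acyl-CoA synthetases, and pass the mitochondrial membranes as carnitine esters. Beta-oxidation then cuts them into acetyl-CoA, which the citrate cycle oxidizes together with the acetyl-CoA made from pyruvate by pyruvate dehydrogenase. Nuclear receptors such as the estrogen-related receptors and PPARs, with their coactivator PGC1α, are known to drive many of these genes in oxidative muscle.

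All 55 genes had at least 1 peak in the control list, and 52 of 55 had at least 1 in the detrained list. The 3 genes without a detrained peak were Hadha, the alpha subunit of the mitochondrial trifunctional protein, Pdhx, which anchors dihydrolipoamide dehydrogenase in the pyruvate dehydrogenase complex, and Pnpla2, which encodes adipose triglyceride lipase. In each of these cases acetylation remained listed at the start site under the name of another gene. The start of Pdhx lay in a promoter peak of 113 tags per 10000000 sequenced tags in control, and in a detrained peak of 108 tags that was named for Apip, transcribed the other way. The start of Pnpla2 lay in a control peak of 3040 bp and 376 tags. In detrained mice it lay in a single peak of 17006 bp and 1038 tags, named for Cracr2b, which took in 3 control peaks with 982 tags in all. The start of Hadha lay in the Hadhb peak of both lists, and what the detrained list lacked was a separate intronic peak of 42.1 tags.

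Start sites from the RefSeq annotation of GRCm38.p6, which shares its coordinates with mm10, were set against the peaks whatever their name. The start of 54 of the 55 genes lay in a peak of the control list, and likewise for 54 in the detrained list. Of 21000 genes with a curated transcript, 52.7% had a start covered by the control list and 52.5% one covered by the detrained list. The exception in both lists was Acacb, the mitochondrial acetyl-CoA carboxylase whose malonyl-CoA restrains carnitine palmitoyltransferase, although an intronic peak centred 12632 bp after its start held 512 tags in control and 592 in detrained mice.

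The stretches between the divergent start sites of the pairs Pdhx/Apip and Hadha/Hadhb are shown because a single acetylated promoter there serves 2 genes. Each list gives that promoter peak 1 name, and at Pdhx the name decided whether the member counted as present. The stretches are RefSeq reference sequence of GRCm38.p6, plus strand, 5′ to 3′, and end 1 base short of each start. CpG dinucleotides are in capitals.
Pdhx/Apip, chr2:103073514-103073674: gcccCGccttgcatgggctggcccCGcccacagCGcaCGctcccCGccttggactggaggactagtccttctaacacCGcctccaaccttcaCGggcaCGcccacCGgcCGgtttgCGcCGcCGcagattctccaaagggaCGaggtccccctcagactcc
Hadha/Hadhb, chr5:30154981-30155252: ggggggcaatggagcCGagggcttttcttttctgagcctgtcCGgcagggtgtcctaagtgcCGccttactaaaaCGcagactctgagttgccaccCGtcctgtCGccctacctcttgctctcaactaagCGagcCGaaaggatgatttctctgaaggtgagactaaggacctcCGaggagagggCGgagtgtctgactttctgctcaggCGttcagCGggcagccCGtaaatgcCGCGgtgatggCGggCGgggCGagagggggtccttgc
The Pdhx/Apip stretch held 161 bases with 14 CpG and 68.9% G or C, and the Hadha/Hadhb stretch held 272 bases with 18 CpG and 60.3% G or C. Each stretch lay within a peak of both lists.

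The binding element of the estrogen-related receptors, TNAAGGTCA on either strand, was sought in the promoter windows that RefSeq sequence gave for 47 of the 55 genes, from 250 bases before the start to 50 after. Of 61 windows 1 held it, or 1.64%, against 1.28% of 32851 windows of all genes. That window belonged to Acsl6, an acyl-CoA synthetase, and the match is in capitals, 167 to 159 bases before the start on chromosome 11, GRCm38.p6, plus strand.
Acsl6, chr11:54303637-54303685: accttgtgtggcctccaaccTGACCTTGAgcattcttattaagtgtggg
The match lay just outside the Acsl6 peak of either list. The count describes letters in these windows only.

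Peaks named for the 55 genes were longer, stronger and nearer to start sites than peaks in general. In control mice their median was 1989 bp and 90.5 tags per 10000000, against 1568 bp and 45.5 tags over all peaks. In detrained mice it was 2095 bp and 102 tags, against 1798 bp and 57.9 tags. Within 10 kb of a start lay 63.4% of the member peaks in control and 65.4% in detrained mice, against 40.4% and 42.5% of all peaks. Promoters held 13.1% of member peaks in control and 15.0% in detrained mice, against 11.2% and 12.6% of all peaks, and introns held 52.9% and 51.1%. These shares describe the lists, and peaks of 1 gene are not independent of each other.

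In control mice 22 genes had a single peak and 10 had 5 or more. These are 40% and 18.2% of the members, near the 42.1% and 19.9% of all genes with a peak. Lpl, whose product, lipoprotein lipase, frees fatty acids from circulating lipoproteins, had 12 peaks in control and 11 in detrained mice. Cd36, the fatty acid translocase, had 10 and 9, and Acsl1, the main long-chain acyl-CoA synthetase of muscle, had 8 and 9. The same 3 genes carried the largest sums of tags. Cd36 had 1912 tags per 10000000 over 44.4 kb in control and 1838 over 36.5 kb in detrained mice. Lpl had 1538 tags over 31.2 kb and 1608 over 31.4 kb. Acsl1 had 1452 tags over 29.7 kb and 1118 over 22.6 kb, which is 48.98 tags per kb in control and 49.35 in detrained mice. Fewer tags at Acsl1 thus went with less listed sequence, at about the same tags per kb.

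For comparisons between groups, control and detrained peaks were paired into shared peaks where they covered 50% or more of each other, with no second partner at that level, and both carried the name of the same member. In 11 of the pairs below a further peak of the other list overlapped to a lesser degree. There were 94 such peaks on 51 genes, out of 26432 shared peaks in all, and the member without one, beside Hadha, Pdhx and Pnpla2, was Mlycd, malonyl-CoA decarboxylase. At Mlycd 2 control peaks of 293 and 93.7 tags corresponded to 1 detrained peak of 352 tags. The density of a peak is its tags per kb per 10000000 sequenced tags of the library. The densest shared peak of a gene is called its main peak.

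The 51 main peaks were denser than those of other genes. Their median density was 67.5 tags per kb, against 55.7 over the main peaks of 12492 genes, and the median member stood at percentile 65.3 of those genes. Above the input of the same group, on the deposited log2 scale, their median per library ran from 2.88 to 3.14, and that of the main peaks of all genes from 2.62 to 2.78.

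**Figure D1:**
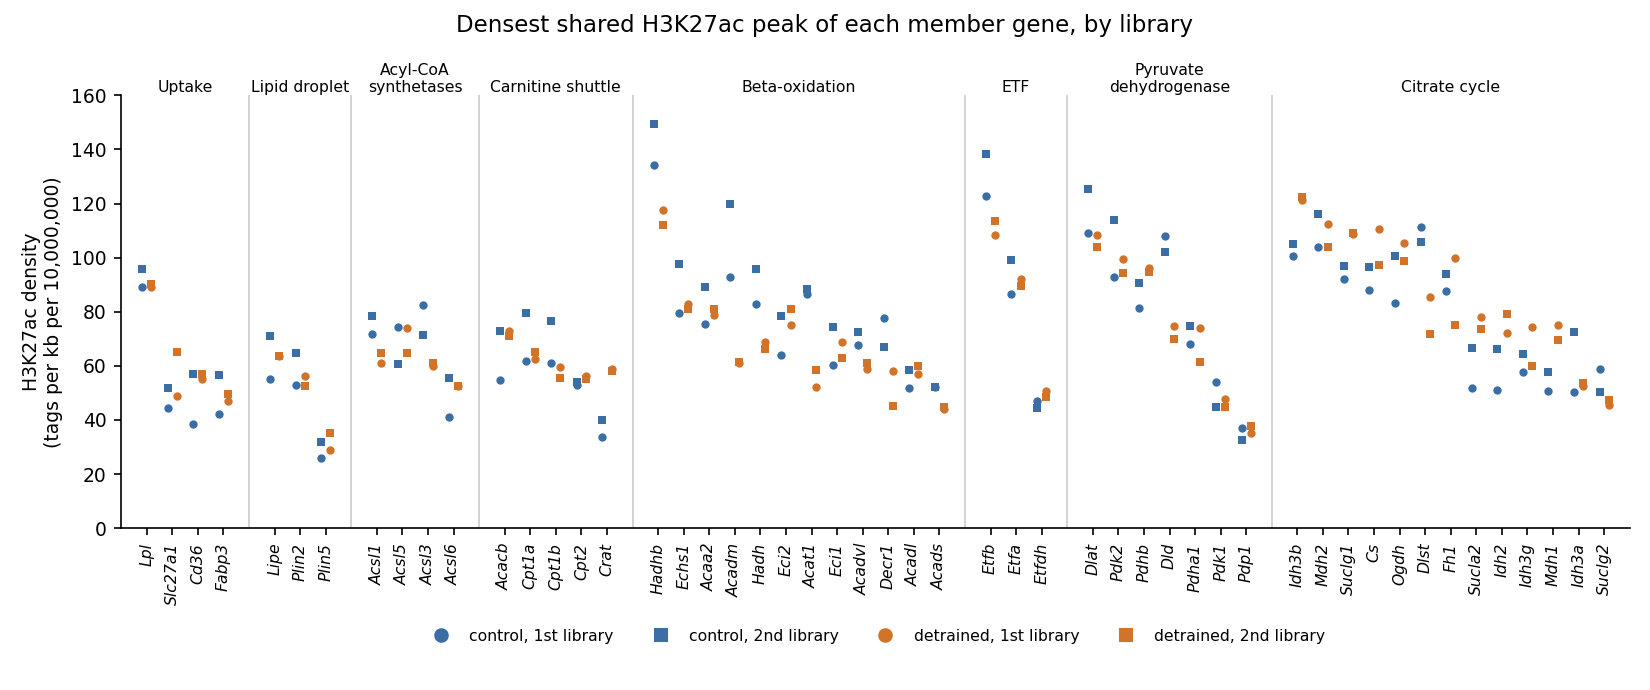
Density of the main peak of 51 genes in tags per kb per 10000000 sequenced tags, with each gene on the horizontal axis under its role and 1 point per library (blue control, orange detrained). Hadhb, Etfb and Idh3b stand highest and Plin5 lowest, and 26 of the 51 genes have overlapping groups.

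Among the genes of uptake, the main peak of Lpl, an intronic peak centred 938 bp after the start, had densities of 89.0 (C2), 95.7 (C3), 89.2 (Ex1) and 90.3 (Ex2). The groups overlapped in density, while its tags of 614 and 660 in control and 666 and 674 in detrained mice did not. This was the densest peak of its role. Slc27a1, which encodes the fatty acid transport protein of muscle, had 44.3 and 51.8 in control and 48.9 and 65.1 in detrained mice. Of the lipid droplet genes, Lipe, the hormone-sensitive lipase, had 55.3 and 70.9 in control and 63.7 and 63.5 in detrained mice. Plin2, a coat protein of lipid droplets, had 53.0 and 64.6 in control and 56.2 and 52.6 in detrained mice. In all 3 of these genes the groups overlapped in density. In tags, not divided by length, Plin2 had 118 and 144 in control and 98.1 and 91.7 in detrained mice, with both detrained libraries lower, over 2231 and 1749 bp.

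Acyl-CoA synthetases trap fatty acids in the cell by activating them. The main peak of Acsl1 lay in intergenic sequence at -56516 bp from a start of the gene and had densities of 71.9 and 78.4 in control and 61.1 and 64.8 in detrained mice. Both detrained values were the lower ones. A denser control peak, of 104 tags per kb over 1708 bp, lay at a start of the gene but was not a shared peak. Its region had 164 and 193 tags in control and 186 and 197 in detrained mice, with overlap, over 1708 and 3064 listed bp. Acsl5 had densities of 74.4 and 60.5 in control and 74.2 and 64.7 in detrained mice, and the groups overlapped. In the carnitine shuttle, Acacb had 54.7 and 73.0 in control and 72.8 and 71.2 in detrained mice, in a peak of about the same length in both lists. Cpt1a, the liver-type carnitine palmitoyltransferase, had 62.0 and 79.7 in control and 62.6 and 65.1 in detrained mice. In both genes the control libraries stood farther apart in density than the group means. Over its joined region Cpt1a had 321 and 413 tags in control and 268 and 273 in detrained mice, a log2 difference of -0.43 without overlap, over 5180 and 4670 listed bp.

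In beta-oxidation, Hadhb, the beta subunit of the trifunctional protein, had the densest main peak of the whole set, at the promoter it shares with Hadha. Its densities were 134 (C2), 149 (C3), 118 (Ex1) and 112 (Ex2), with both detrained libraries lower. Its pooled tags did not differ in that way, being 348 in control and 369 in detrained mice, and the detrained peak was longer, 3214 against 2459 bp. Echs1, the short-chain enoyl-CoA hydratase, had 79.7 and 97.7 in control and 82.8 and 81.0 in detrained mice.

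Acadl, long-chain acyl-CoA dehydrogenase, carries out the first step of beta-oxidation on long chains. Its main peak at the promoter had densities of 51.8 (C2), 58.5 (C3), 57.0 (Ex1) and 60.0 (Ex2). The groups overlapped, and the difference of 0.09 on the log2 scale was about the size of the SD between libraries of a group. In tags, not divided by length, the same peak had 289 and 326 in control and 259 and 273 in detrained mice, with both detrained libraries lower, over 5577 and 4558 bp. A second Acadl region, at about -34003 bp from the start, held 2 control peaks with 43.5 tags in all and 1 detrained peak of 73.9 tags. Its estimated tags were 44.6 and 42.3 in the control libraries and 70.4 and 77.2 in the detrained libraries, over 1126 and 2041 listed bp.

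Electron transfer flavoprotein passes electrons from the acyl-CoA dehydrogenases to the respiratory chain. Its beta subunit gene, Etfb, had the next densest main peak of the set, with 123 and 138 in control and 108 and 114 in detrained mice. Etfa had 86.7 and 99.0 in control and 92.2 and 89.6 in detrained mice. In the pyruvate dehydrogenase group, Dlat, the acetyltransferase core, had 109 and 125 in control and 108 and 104 in detrained mice. Pdk2, a kinase that switches the complex off, had 93.0 and 114 in control and 99.4 and 94.2 in detrained mice. At Etfb and Dlat the detrained values were below those of control, and at Etfa and Pdk2 the groups overlapped in density. Etfa separated in tags, with 165 and 189 in control and 145 and 141 in detrained mice, over 1907 and 1579 bp. In tags, not divided by length, Dlat had 235 and 270 in control and 287 and 275 in detrained mice, so the direction turned, and the groups overlapped at Etfb.

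The citrate cycle had 13 members, all with a shared peak. Idh3b, a regulatory subunit of NAD-dependent isocitrate dehydrogenase, had 101 and 105 in control and 121 and 122 in detrained mice, with both detrained libraries higher. Its peak was shorter in detrained mice, 1285 against 1560 bp, and its tags overlapped, with 157 and 164 in control and 156 and 157 in detrained mice. Mdh2, mitochondrial malate dehydrogenase, had 104 and 116 in control and 112 and 104 in detrained mice, with overlap. Citrate synthase, Cs, had 88.1 and 96.6 in control and 111 and 97.4 in detrained mice. The detrained values of Cs were higher, by a margin of less than 1 tag per kb at the nearest pair. Its peak measured 6480 bp in control but 5072 bp in detrained mice, with pooled tags of 598 and 526, so density and tags differed in opposite directions.

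Whether acetylation at these genes differed after training and 72 hours of rest was asked with the 94 shared peaks. The median difference in log2 density, detrained minus control, was 0.01, against -0.03 over all shared peaks. The detrained pair was lower than the control pair, without overlap, at 21 peaks and higher at 20. These are 22.3% and 21.3% of the member peaks. Over all shared peaks the shares were 27.2% below and 21.3% above, so the member counts lay at or below this background. With the deposited log2 values in place of estimated tags, 6 member peaks were lower and 53 higher, or 6.38% and 56.4%, against 7.98% and 51.7% of all shared peaks. All these counts are generous, since the deposited values shrink the difference between libraries of a group. No member peak differed 2-fold without overlap, against 0.0605% of all shared peaks lower and 0.0151% higher. Main peaks gave the same picture, with a median of -0.03, 15 of 51 lower and 10 of 51 higher, against 28.7% lower and 21.9% higher over main peaks of all genes.

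The control libraries differed more from each other at these genes than the groups did. Mean log2 density over the 94 peaks was 5.57 (C2), 5.74 (C3), 5.66 (Ex1) and 5.64 (Ex2), which puts Ex1 and Ex2 between the control libraries. The group means were 5.65 ± 0.12 in control and 5.65 ± 0.01 in detrained mice (SD, n = 2). Over all shared peaks C3 exceeded C2 by 0.07, and over the member peaks by 0.17. Without C2 the count of lower member peaks was 51 and without C3 the count of higher ones was 56, and over all shared peaks the same omissions gave 45.5% lower and 38.7% higher, against 54.3% and 59.6% of the members. With fewer libraries non-overlap is easier to meet, so these counts are larger by construction. No test between groups was made, since the tables were normalized separately, and 2 libraries against 2 cannot give a two-sided exact permutation p below 0.333.

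Many of the larger differences in density went with differences in peak length. The 6 main peaks that were lowest in detrained mice, with libraries that did not overlap, were those of Acadm (-0.78), Acat1 (-0.66), Dld (-0.54), Decr1 (-0.50), Dlst (-0.47) and Hadh (-0.40 on the log2 scale). They encode medium-chain acyl-CoA dehydrogenase, mitochondrial acetoacetyl-CoA thiolase, dihydrolipoamide dehydrogenase, dienoyl-CoA reductase, the E2 subunit of 2-oxoglutarate dehydrogenase and hydroxyacyl-CoA dehydrogenase. All 6 detrained peaks were longer than their control peaks. In tags, not divided by length, the groups overlapped at all 6.

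Acadm shows the pattern most plainly. Its promoter peak had densities of 92.8 (C2), 120 (C3), 61.1 (Ex1) and 61.5 (Ex2). The control peak measured 2859 bp and held 303 pooled tags, and the detrained peak measured 5163 bp and held 316. Undivided by length, the estimated tags were 265 and 342 in the control libraries and 315 and 317 in the detrained libraries, and the groups overlapped. At Acat1 the peak was 1543 and 2350 bp, with densities of 86.4 and 88.4 in control and 52.3 and 58.3 in detrained mice and with 135 and 130 pooled tags. At Dld the peak was 1009 and 1419 bp, with densities of 108 and 102 in control and 74.7 and 70.1 in detrained mice and with 106 and 102 pooled tags.

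Among main peaks whose libraries did not overlap, the 6 highest in detrained mice were those of Crat (0.67), Mdh1 (0.42), Idh2 (0.38), Sucla2 (0.37), Idh3b (0.24) and Suclg1 (0.21). Crat encodes carnitine acetyltransferase, and the others encode cytosolic malate dehydrogenase, mitochondrial isocitrate dehydrogenase, the ADP-specific succinyl-CoA ligase subunit, the isocitrate dehydrogenase subunit above and the shared alpha subunit of succinyl-CoA ligase. Crat had densities of 33.6 and 40.0 in control and 59.0 and 57.9 in detrained mice. Its detrained peak of 9675 bp and 565 tags, however, covered 2 control peaks of 253 and 362 tags, of which only the weaker one was paired with it. Together those control peaks held 614 tags, with 566 and 664 in the control libraries and 571 and 560 in the detrained libraries. Joined in this way the groups overlapped at Crat. Over the joined regions the groups also overlapped in tags at Mdh1, Sucla2 and Idh3b, with log2 differences of 0.02, -0.11 and -0.03. At Idh2 and Suclg1 the detrained tags were higher, by 0.26 and 0.04, and at Suclg1 the nearest values, 209.05 in C3 and 209.11 in Ex1, were almost equal.

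Cpt1b and the Mlycd, Acsl3, Acsl6 and Pdk1 values here were chosen after their values were seen. The opposite case to Crat was Cpt1b, the muscle-type carnitine palmitoyltransferase and the gate of fatty acid entry into mitochondria. Its control peak of 6835 bp held 469 tags, and the detrained peak named for it held 201 tags over 3499 bp. The rest of the control peak was met by a detrained peak of 172 tags named for Chkb, the neighbouring choline kinase gene. Over the joined region the tags were 418 and 522 in the control libraries and 393 and 355 in the detrained libraries. The log2 difference was -0.33 with both detrained libraries lower, over 6835 and 4903 listed bp. The lower tags thus went with less listed sequence. Per kb the control peak held 68.7 tags, and the detrained peaks held 57.5 (Cpt1b) and 122 (Chkb), so density did not fall throughout the region.

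**Figure D2:**
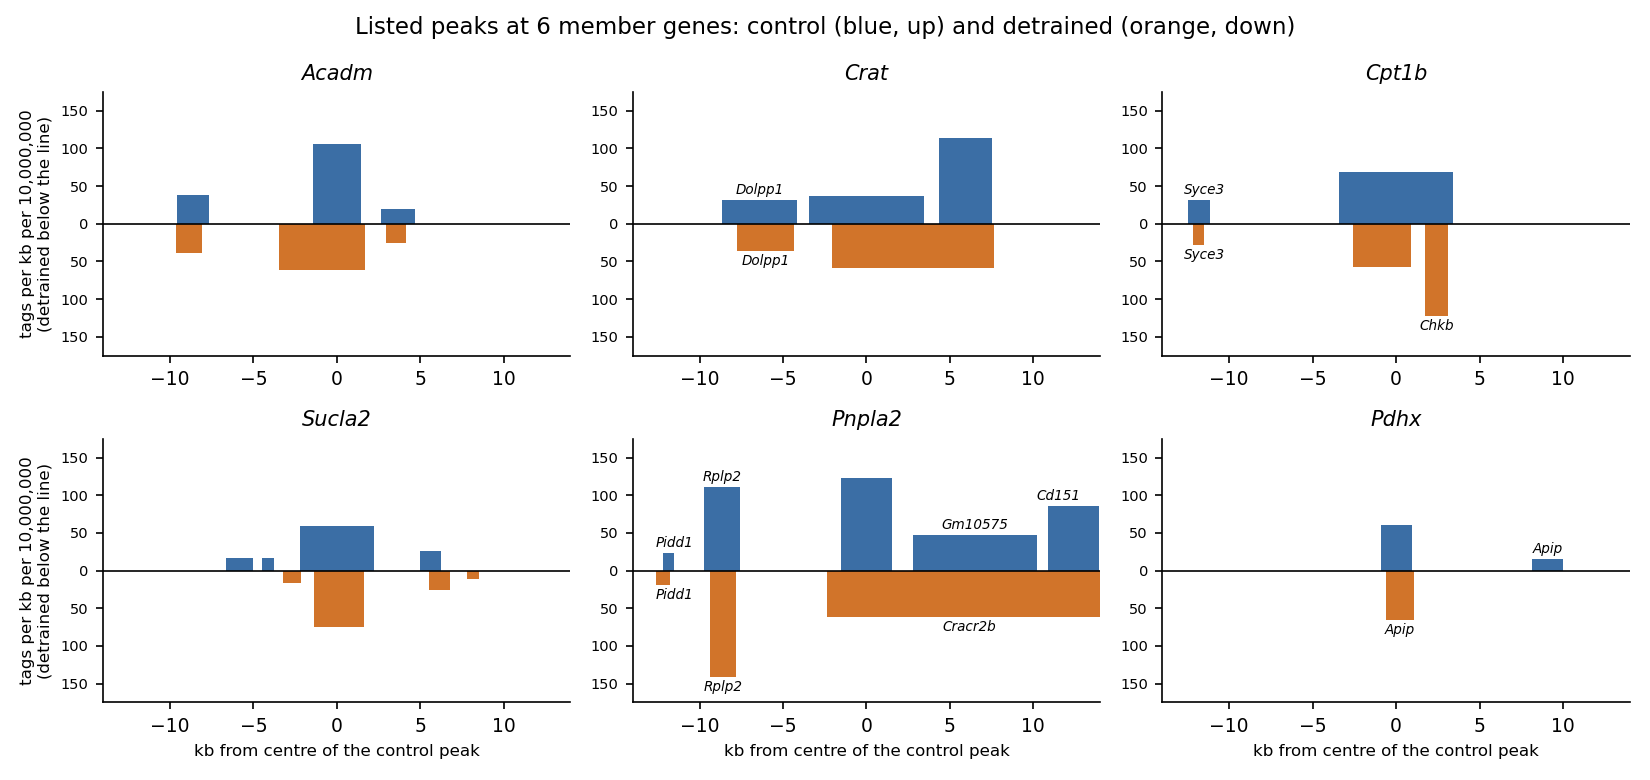
Listed peaks around 6 control peaks, with distance from the centre of the control peak in kb on the horizontal axis and pooled tags per kb per 10000000 upward for control (blue) and downward for detrained mice (orange); the name over a peak is given where it differs from the gene of the panel. The Acadm promoter peak is longer in detrained mice, peaks are joined at Crat and Pnpla2, split at Cpt1b and renamed at Pdhx.

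Over the 94 shared peaks the Spearman correlation of the density difference with the length difference was -0.50, and over all 26432 shared peaks it was -0.53. It is given as a description, since density was computed by dividing by length. Of the 21 lower member peaks 19 were longer in detrained mice, and of the 20 higher ones 4 were. These are 90.5% and 20% of them, against 80.1% and 19.4% over all shared peaks. Pooled tags differed in the same direction as density at 11 of the 21 and at 8 of the 20, or 52.4% and 40%, against 55.1% and 46.1%.

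**Figure D3:**
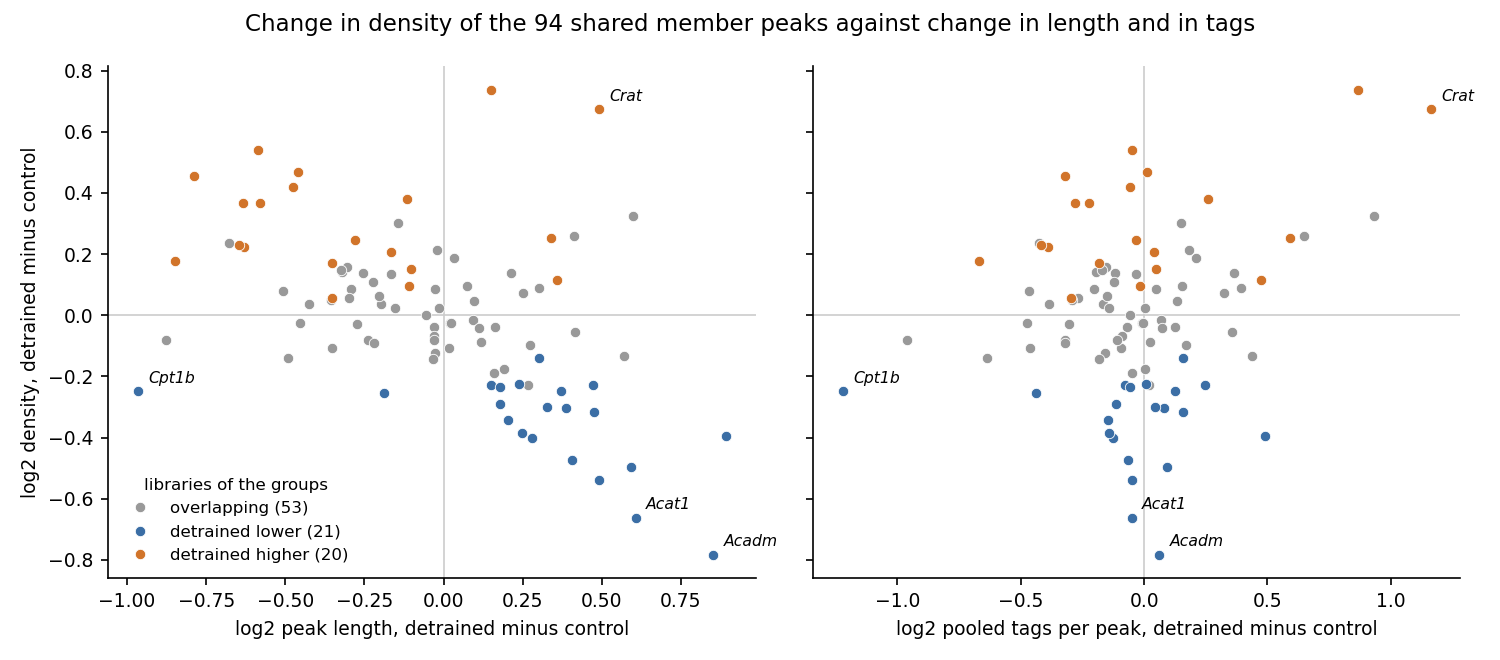
Difference in log2 density of the 94 shared peaks (vertical axis, detrained minus control) against the difference in log2 peak length (left) and in log2 pooled tags per peak (right), coloured by whether the libraries of the groups overlapped. Lower peaks sit among those that lengthened, as for Acadm and Acat1, while the tags of many of them differ little.

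Because peaks were joined and split, tags were also summed over regions, each joined from all overlapping peaks of both lists. The sum of a group took in only its own listed peaks in the region, so it still depended on their length. This measure was chosen after the lengths had been seen. The member peaks formed 160 regions, of which 110 held peaks of both lists. The median log2 difference in tags over these was -0.06, against -0.01 over 31776 regions of all genes. Both detrained libraries were lower at 28 regions and higher at 21, or 25.5% and 19.1%, against 29.5% and 28.1% over all regions.

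The acyl-CoA synthetase genes stood at the lower end of the roles by this measure. Of 15 regions at Acsl1, Acsl3, Acsl5 and Acsl6, 9 had both detrained libraries lower and 0 higher, with a median of -0.19, against 29.5% lower and 28.1% higher over all regions. Their summed tags were 2392 (C2), 2670 (C3), 2067 (Ex1) and 2069 (Ex2), over 52.2 kb of listed sequence in control and 42.4 kb in detrained mice. Per kb they had 48.5 tags in control and 48.8 in detrained mice, so the lower sums went with shorter peaks. By density of shared peaks, 2 of 10 were lower and 2 higher, near the 27.2% and 21.3% of all shared peaks.

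The intergenic Acsl1 region at -56516 bp had 361 and 394 tags in the control libraries and 269 and 286 in the detrained libraries. An intronic region of Acsl1 at chr8:46496064-46500366 (mm10) had 153 and 181 in control and 106 and 109 in detrained mice. A region before Acsl3, at about -44230 bp from its start, had 315 and 289 in control and 203 and 222 in detrained mice. The shared peak within it was higher in density, with 57.2 and 52.6 in control and 59.8 and 64.3 in detrained mice, over 5506 and 3061 bp. The Acsl3 start itself, listed in control under the neighbouring name Utp14b, had 170 and 155 in control and 99.5 and 106 in detrained mice. In each of these 4 regions the groups did not overlap.

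Beta-oxidation genes had the lowest densities in detrained relative to control mice among the roles, and little difference in tags. Of 17 shared peaks 8 were lower and 1 was higher, with a median of -0.23, against 27.2% lower and 21.3% higher over all shared peaks. All 8 lower peaks were longer in detrained mice. Of 19 regions 4 were lower and 2 higher in tags, both below the shares over all regions (29.5% and 28.1%), and the summed tags of 2805 (C2), 3314 (C3), 2941 (Ex1) and 2918 (Ex2) overlapped between groups. The lowest single region was a second one at Acat1, at chr9:53600404-53604364, where a control peak of 3960 bp with 97.3 tags was met by a detrained peak of 906 bp with 25.5 tags.

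Of 25 shared peaks of citrate cycle genes 5 were lower and 9 higher in density, with a median of 0.09, against 27.2% and 21.3% of all shared peaks. Of their 27 regions 3 were lower and 7 higher in tags, both below the 29.5% and 28.1% of all regions, with a median of 0.00. Their summed tags were 4621 (C2), 5317 (C3), 4963 (Ex1) and 4696 (Ex2), so both detrained libraries lay between the control libraries. Idh2 varied among its own peaks. Of its 5 shared peaks 2 were higher and 3 lower in density, and of its 5 regions 3 were higher in tags. Its main peak at -15146 bp from the start had densities of 50.9 and 66.4 in control and 72.1 and 79.2 in detrained mice, and its tags were 132 and 172 in control and 172 and 189 in detrained mice. The nearest control and detrained values there were 171.7 and 172.2 tags, so the separation was small. The other higher peak, at -3701 bp, had the highest density difference of the 94 shared peaks, 0.74, with 18.8 and 27.8 in control and 40.0 and 36.3 in detrained mice. Its length differed by 0.15 on the log2 scale and its pooled tags were 42.3 and 77.2. The detrained peak also met a further control peak that was not paired with it. Over the joined region the pooled tags were 57.7 and 77.2, a log2 difference of 0.42 without overlap, over 2722 and 2033 listed bp. The density differences of the 3 lower peaks were -0.32 at the peak nearest to the start, -0.30 and -0.38.

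The counts of the remaining roles are to be read against the same backgrounds, 27.2% lower and 21.3% higher for shared peaks and 29.5% and 28.1% for regions, and rest on few peaks each. Uptake genes had 16 shared peaks with 0 lower and 2 higher, and 18 regions with 2 lower and 5 higher. The intronic Cd36 main peak had 80.9 and 120 tags in control and 155 and 159 in detrained mice, in a region of 2107 and 2802 listed bp, while its densities of 38.5 and 57.1 in control and 55.3 and 56.8 in detrained mice overlapped. The carnitine shuttle and malonyl-CoA genes had 9 shared peaks with 3 lower and 3 higher, and 11 regions with 4 lower and 3 higher. Lipid droplet genes had 5 shared peaks with 0 lower and 1 higher, and 6 regions with 2 lower and 0 higher. Electron transfer flavoprotein genes had 4 shared peaks with 1 lower and 1 higher, and 4 regions with 2 lower and 1 higher. The pyruvate dehydrogenase group had 8 shared peaks with 2 lower and 1 higher, and 10 regions with 2 lower and 3 higher.

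The highest single region was at Pdk1, a kinase of the pyruvate dehydrogenase complex known as a target of hypoxia signalling. At about -5419 bp from its start a control peak of 966 bp held 33.3 tags and a detrained peak of 2087 bp held 79.2. The libraries had 35.1 and 31.4 tags in control and 78.1 and 80.2 in detrained mice. At the Pdk1 promoter the tags were 89.3 and 74.3 in control and 67.9 and 63.5 in detrained mice, so the difference there had the opposite direction.

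**Figure D4:**
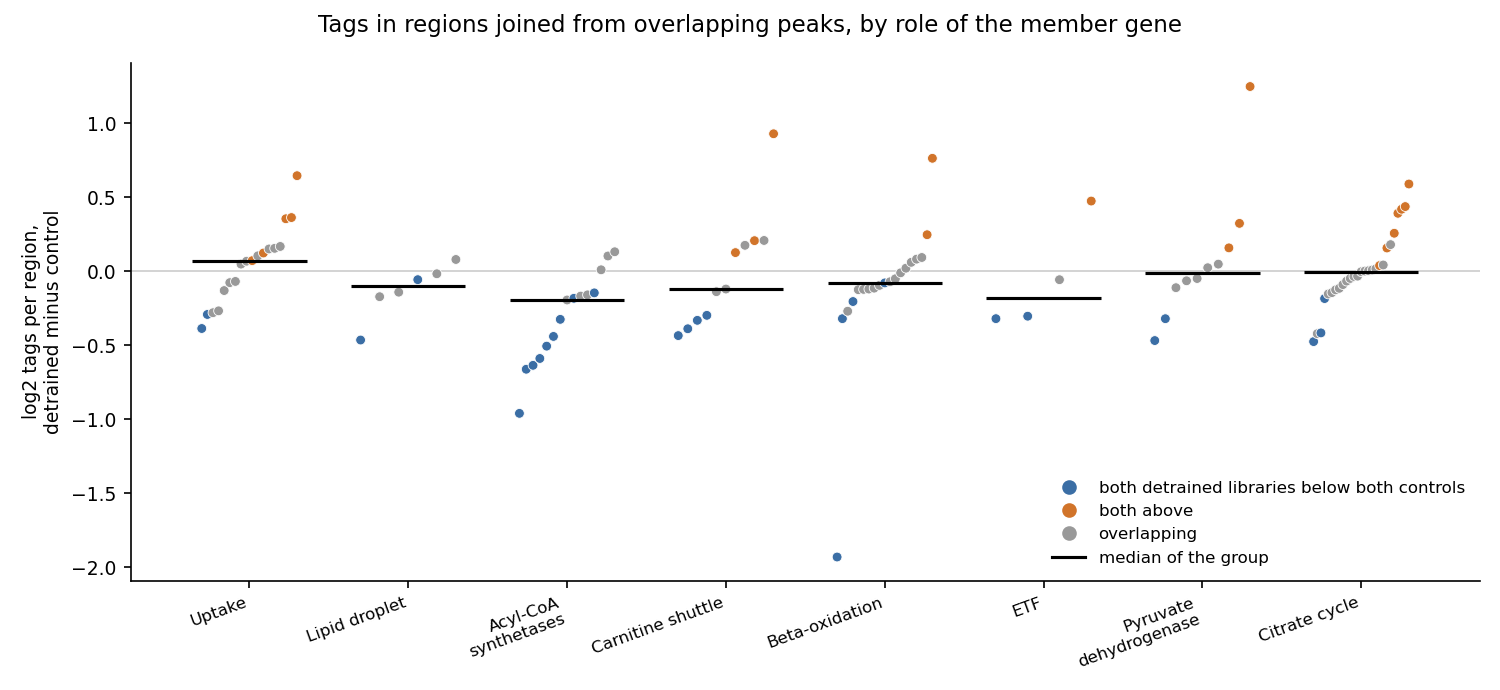
Log2 difference in tags, detrained minus control, of the 110 regions with peaks of both lists, by role of the gene, with a black line at the median of each role and colour for the regions whose libraries did not overlap. The acyl-CoA synthetase regions have the lowest median, -0.19, and no region with both detrained libraries higher.

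Peaks present in only 1 list were weak. Of the 153 control peaks 36 overlapped no detrained peak, or 23.5% against 27.9% of all control peaks, and of the 133 detrained peaks 14 overlapped no control peak, or 10.5% against 17.96%. Their median was 15.3 tags per 10000000 in control and 13.4 in detrained mice. The strongest were an Acsl1 intronic peak of 91.4 tags and an Acsl6 intronic peak of 85.3 tags, both in the control list. The strongest in the detrained list was a Hadh intronic peak of 28.7 tags.

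Of 34 further genes of these pathways, 32 had a peak in control and 33 in detrained mice, and 29 had a shared peak. At their main peaks both detrained libraries were lower at 4 and higher at 9, with a median log2 density difference of 0.05. The shares over main peaks of all genes, 28.7% lower and 21.9% higher, are the background for these counts. Sdhd, a subunit of succinate dehydrogenase, had 89.2 and 95.5 in control and 120 and 112 in detrained mice. Summed over all its peaks, the tags of Sdhd were 276 and 293 in control and 274 and 260 in detrained mice, so the direction was the opposite. Pdk4, the kinase known to respond to fasting and exercise, had 53.3 and 74.5 in control and 49.4 and 55.2 in detrained mice. The groups overlapped at Pdk4.

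Markers of cell types were read in the same lists, as summed tags of the peaks named for them. Of 8 muscle fibre markers 7 had peaks in each list, with 6185 and 7886 tags in control and 7566 and 7329 in detrained libraries. Without Myh4, a fast myosin whose peaks held 79.2 pooled tags in control and 800.4 in detrained mice, the sums were 6110 and 7803 in control and 6752 and 6541 in detrained libraries. Peaks at Myh4 were named differently in the lists, and the control list covers the same place with a peak of 17925 bp and 1257 tags named for Myhas, which meets 3 detrained peaks of 1072 tags in all. Of 6 adipocyte markers 3 had peaks in control and 2 in detrained mice, the defining genes Adipoq, Plin1 and Cidec had none, and the sums were 644 and 862 in control and 975 and 758 in detrained mice. All 5 endothelial markers had peaks, with 2226 and 2615 in control and 2899 and 2290 in detrained mice. Fibroblast markers had 2420 and 2355 in control and 2927 and 2921 in detrained mice, satellite cell markers 179 and 173 against 227 and 246, and macrophage and leukocyte markers 168 and 133 against 293 and 239. The last 3 lists were higher in both detrained libraries and covered more listed sequence, 65.7 and 76.1 kb for fibroblasts, 9.96 and 14.3 kb for satellite cells, and 6.92 and 12.7 kb for macrophages and leukocytes. Per kb they had 36.3 and 38.4, 17.7 and 16.6, and 21.7 and 20.99 tags in control and detrained mice in that order, and their part in the values of the metabolic genes was not tested. Of the 2 satellite cell markers only Pax7 was higher, and Myf5 had 75.2 and 69.1 tags in control and 67.5 and 73.7 in detrained mice. Dcn and Csf1r overlapped between groups too, and Ptprc had peaks in the detrained list only.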

How the data were processed

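H3K27ac ChIP-seq of quadriceps comprised 2 libraries and 1 input each of control and detrained mice. Alignment by the authors was to mm10, with Bowtie (version 1.2 in the submitters' processing notes). The authors kept 1 read per position and, the authors' caller being HOMER, used it with DESeq2 to call 1 histone peak list per group on both libraries against its input, annotating each peak to the nearest gene. The deposited signal per peak is the pooled tags of both libraries per 10000000, and the deposited log2 values per library are regularized, which shrinks differences between libraries. The authors' log2 fold over input and adjusted p-value were used only to filter peaks, and peak length is in bp (the deposited column outside the other units).

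No tag counts per library were used here, so the pooled tags were shared out in proportion to each library's total and log2 value. Spread within groups is therefore understated and counts of peaks whose libraries do not overlap are generous. Counting error of a log2 difference was 0.038 to 0.22 over member shared peaks, for counting alone. Density was (tags + 0.5) per kb per 10000000. A count test had been planned only for tag counts per library, and no test between groups was run.

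The members, their roles, the further pathway genes and the marker lists were chosen with earlier results of these data known. Named genes were Acadl, the 2 densest main peaks of each role, the 6 largest differences each way without overlap of libraries, the 3 genes with most peaks and with most tags, and genes lacking a peak in a list; other genes were named after their values were seen. Control libraries were numbered differently in labels and headers and were assigned to the group. The sharing out of tags and the density differences were tested on simulated tags. These had the same peaks in both groups and log2 values without shrinkage, so shrinkage and differing peak boundaries were not tested. Computation used scipy 1.17.1, pandas 2.3.3 and numpy 2.4.6 under Python 3.11.15, with plots in matplotlib 3.10.9.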

Additional observations from a re-analysis of the deposited data

How the results depend on the processing

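The median density difference of the 94 shared peaks (0.01) and of the 51 main peaks (-0.03) moved by less than the SD between libraries under another overlap, pseudocount, normalization, centring, filter or peak threshold. With the deposited log2 values in place of estimated tags they were 0.24 and 0.20, where the median of all shared peaks was 0.20, and 6 peaks were lower and 53 higher. With at least 80% of each peak covered, 8 of 46 shared peaks were lower and 5 higher. These are 17.4% and 10.9%, against 23.7% and 16.5% of all 12556 shared peaks at that setting. Undivided by length, 2 peaks (Cpt1b and Crat) differed 2-fold. Leaving out each library in turn, the median of shared peaks ran from -0.086 to 0.074, that of main peaks from -0.12 to 0.058 and that of summed tags per gene (-0.08) from -0.18 to 0.031. Lower peaks numbered 27 to 51, higher ones 25 to 56 and 2-fold ones 0 to 1, where leaving out C2 or C3 gave the highest counts. Over all shared peaks the same omissions gave 35.9% to 45.5% lower and 28.8% to 38.7% higher. The other 83 values recomputed for lists, medians and counts moved by less than the SD between libraries or, for counts, less than 1.5 times.

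Among the named main peaks whose difference exceeded the SD between libraries, the direction turned with tags undivided by length at Acadm (0.070), Decr1 (0.094), Dlat (0.16), Hadhb (0.084), Idh3b (-0.035), Mdh1 (-0.056), Slc27a1 (-0.44) and Sucla2 (-0.21). With joined regions, added after seeing the data, it turned at Acadm (0.061), Crat (-0.12), Decr1 (0.094), Dlat (0.16), Hadhb (0.083), Idh3b (-0.035), Slc27a1 (-0.27) and Sucla2 (-0.11). With the deposited log2 values Dlat was at 0.094, and with the shared peak nearest to the start Acsl1 was at 0.038 and Idh2 at -0.32. Differences within that SD turned too, at Acadl (-0.20), Lipe (-0.13 and -0.14), Lpl (0.072) and Pdk2 (0.031 and 0.025) in tags or joined regions. Other turns within it came with the deposited log2 values (Cpt1a, Echs1, Etfa, Lpl, Mdh2, Pdk2, Plin2), centring (Mdh2) and the peak nearest to the start (Acacb, Plin2). The cause of these turns was not tested beyond the change of unit that the alternatives make. No paired analysis was possible because headers and labels number control libraries differently and no test was fitted.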
